A study of Arabidopsis thaliana with 15 samples.

Results

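The expressed non-coding genes of Arabidopsis leaves were taken from a table of read counts over 33024 genes. A gene was included when its identifier lay on nuclear chromosomes 1 to 5, its biotype in the table was not protein_coding, and its mean level over all 15 libraries was at least 2 CPM (a gene's count relative to the total count of its library). Of 5128 nuclear non-coding genes, 192 (3.74%) met this rule, and 3182 had no count in any library. By the biotypes of the table the members were 75 of 299 ncRNA genes, 72 of 3481 lncRNA genes, 17 of 25 nontranslating_CDS genes, 15 of 287 snoRNA genes, 11 of 325 miRNA genes, 1 of 4 rRNA genes and 1 of 625 tRNA genes. None of 82 snRNA genes was included.

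RNA came from leaves of Columbia-0 plants 21 days after germination, grown without an applied treatment, and libraries were made from poly-A selected RNA. Each of 5 genotypes had 3 libraries. They were wild type, pp1r3-2, topp4-1, the combination of both mutations (pp1r3-2 topp4-1, called the double mutant here) and topp-7m, which the labels call septuple. The catalytic subunit of type 1 protein phosphatase is encoded by TOPP genes, and by the series title PP1R3 is a regulatory partner of TOPPs. The labels give neither the kind of each allele nor the number of plants in a library, and do not say that replicates were separate plants, so the p-values measure a spread among libraries that could be technical in origin.

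Plant non-coding transcripts serve several distinct systems. Primary transcripts of MIR genes fold into hairpins from which DCL1 cuts a microRNA, which then directs cleavage or repression of target mRNAs. TAS transcripts are cut under the guidance of a microRNA, copied into double-stranded RNA by RDR6 and SGS3, and diced by DCL4 into trans-acting small interfering RNAs; the TAS3 pathway uses miR390 and AGO7, and its products repress auxin response factors that act in leaf polarity and phase change. Box C/D snoRNAs guide methylation of ribosomal RNA. Poly-A selected libraries report polyadenylated precursors of these RNAs, and mature microRNAs and small interfering RNAs were not measured.

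The mature sequences of the 11 MIR genes are shown first because they identify what each precursor would give. They are from RefSeq (TAIR10.1), in DNA letters, 5′ to 3′, with the seed (bases 2 to 8) in capitals. No 2 of the 16 sequences shared a seed. Among all annotated mature microRNAs, 3 carried the seed of miR157c-5p, and 3 each those of miR157c-3p, miR167d and miR159b-3p. The seeds of miR162a-5p, miR162a-3p and miR5642a were carried by 2 each, the member's own included in every case.
ath-miR157c-5p: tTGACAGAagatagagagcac
ath-miR157c-3p: gCTCTCTAtacttctgtcacc
ath-miR167d: tGAAGCTGccagcatgatctgg
ath-miR850: tAAGATCCggactacaacaaag
ath-miR5026: aCTCATAAgatcgtgacacgt
ath-miR863-5p: tTATGTCTtgttgatctcaat
ath-miR863-3p: tTGAGAGCaacaagacataat
ath-miR414: tCATCTTCatcatcatcgtca
ath-miR163: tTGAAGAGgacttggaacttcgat
ath-miR159b-5p: gAGCTCCTtgaagttcaatgg
ath-miR159b-3p: tTTGGATTgaagggagctctt
ath-miR162a-5p: tGGAGGCAgcggttcatcgatc
ath-miR162a-3p: tCGATAAAcctctgcatccag
ath-miR4228-5p: aTAGCCTTgaacgccgtcgtt
ath-miR4228-3p: tCGGATGCgaaacggtggtgt
ath-miR5642a: tCTCGCGCttgtacggcttt

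Complementary stretches in known targets are shown for the MIR157c and MIR167d genes, whose precursors were the MIR transcripts called in topp4-1. Capitals mark bases complementary to the microRNA. SPL genes encode factors of the juvenile-to-adult change, and ARF6 and ARF8 encode auxin response factors.
miR157c-5p in SPL9: GTGCTCTCTcTCTTCTGTCAA
miR157c-5p in SPL13A: GTGCTCTCTcTCTTCTGTCAt
miR167d in ARF6: tgAGATCAgGCTGGCAGCTTgt
miR167d in ARF8: ttAGATCAgGCTGGCAGCTTgt
The stretch in SPL9 had 1 mismatch and that in SPL13A had 2, while those in ARF6 and ARF8 had 5 each.

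The MIR157c gene lies at chr3:6244500-6244716 on the minus strand of TAIR10.1, and its 217 bases are shown with both mature sequences in capitals.
MIR157c: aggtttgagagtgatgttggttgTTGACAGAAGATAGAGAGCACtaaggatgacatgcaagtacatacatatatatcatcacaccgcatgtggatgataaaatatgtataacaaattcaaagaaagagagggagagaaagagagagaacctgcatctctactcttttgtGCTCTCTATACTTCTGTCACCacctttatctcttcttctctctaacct

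TAS3, at chr3:5861491-5862437 on the plus strand, is shown over 160 bases (chr3:5862204-5862363). Capitals mark a stretch complementary to auxin response factor mRNAs and a miR390 site at the other end.
TAS3: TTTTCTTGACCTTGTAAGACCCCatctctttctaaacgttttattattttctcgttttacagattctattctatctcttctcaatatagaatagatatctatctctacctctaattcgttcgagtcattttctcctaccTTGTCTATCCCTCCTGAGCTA
Windows of 21 bases in the first capitals had 1 or 2 mismatches to sites in ARF2, ARF3 (annotated as ETT) and ARF4, and the miR390a-5p site shown had 5 mismatches. Another miR390a-5p site of TAS3, also with 5 mismatches, lies at chr3:5862099-5862119, outside the bases shown.

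Several labels and libraries bear on all results. All 192 members matched a TAIR10.1 gene with the same start and end, and RefSeq calls all 17 nontranslating_CDS members protein_coding, against their biotype in the table. Library totals ran from 17962200 to 20756997 counts. TOPP4 stood at 5.04 to 5.66 CPM in topp-7m against 29.4 to 32.9 CPM in wild type, and 5 of 9 TOPP genes were called lower there. In topp4-1, 4 of the 9 TOPP genes were called higher and 0 lower, and in the double mutant 1 and 0. Levels of TOPP genes therefore did not check these labels. No gene of the table carries the symbol PP1R3, so pp1r3-2 was not checked by level. Wild-type replicate 3 had 0.0813% of its counts on chloroplast genes, against at most 0.0208% in the other libraries, and double mutant replicate 3 differed most from its own replicates, so counts of called members are also given without these libraries.

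Between biotypes, levels differed by the scale used. From here on a level is in CPM of TMM-scaled library sizes, unless it is a mean over the 15 libraries or a value per kb. The median mean level was 8.25 CPM for ncRNA, 4.9 for lncRNA, 18.8 for nontranslating_CDS, 4.61 for miRNA and 2.7 for snoRNA members, against 24.5 for 16764 protein-coding genes at 2 CPM or more. Per kb of gene length, the medians were 10.3, 4.01, 12.1, 26.9 and 34.1 CPM in the same order, against 12.9 for protein-coding genes. The snoRNA and miRNA genes are short, with median lengths of 91 and 217 bases, and fragments were size-selected, so their values per kb are uncertain.

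The most abundant member was AT4G13495, an ncRNA gene, with a mean of 442 CPM. By mean CPM, GUT15, a long-known polyadenylated non-coding RNA, followed at 318 and AT4G36648 at 238. Per kb, AT4G13495 was at 424 CPM, GUT15 at 187 and AT4G36648 at 113, with AT3G15536 (184) and AT5G24735 (121) also above the last. GUT15 was at 295, 269 and 261 CPM in wild type and at 369, 367 and 350 in topp4-1, without overlap (log2 0.40 ± 0.09, adjusted p = 0.0015). MIR414 and MIR163 had the highest mean CPM of the miRNA members, at 27.7 and 25.1, and AT3G47348 that of the snoRNA members, at 14.9. Just inside the threshold lay MIR157c at 2.017, AT2G44995 at 2.034 and AT1G05213 at 2.035 mean CPM, and just outside lay MIR825 at 1.970, AT4G16892 at 1.971 and AT3G45638 at 1.975.

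Most members were above the threshold in each genotype. The group mean reached 2 CPM in all 5 genotypes for 155 members, in 4 for 21, in 3 for 11, in 2 for 3 and in 1 for 2. Those 2 were AT1G32172, in topp4-1, and AT1G05213, in the double mutant, both named after their values were seen. Of 19 non-coding RNAs with an established role, 6 were members: TAS1A, TAS1B, TAS1C, TAS2, TAS3 and GUT15.

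**Figure D1:**
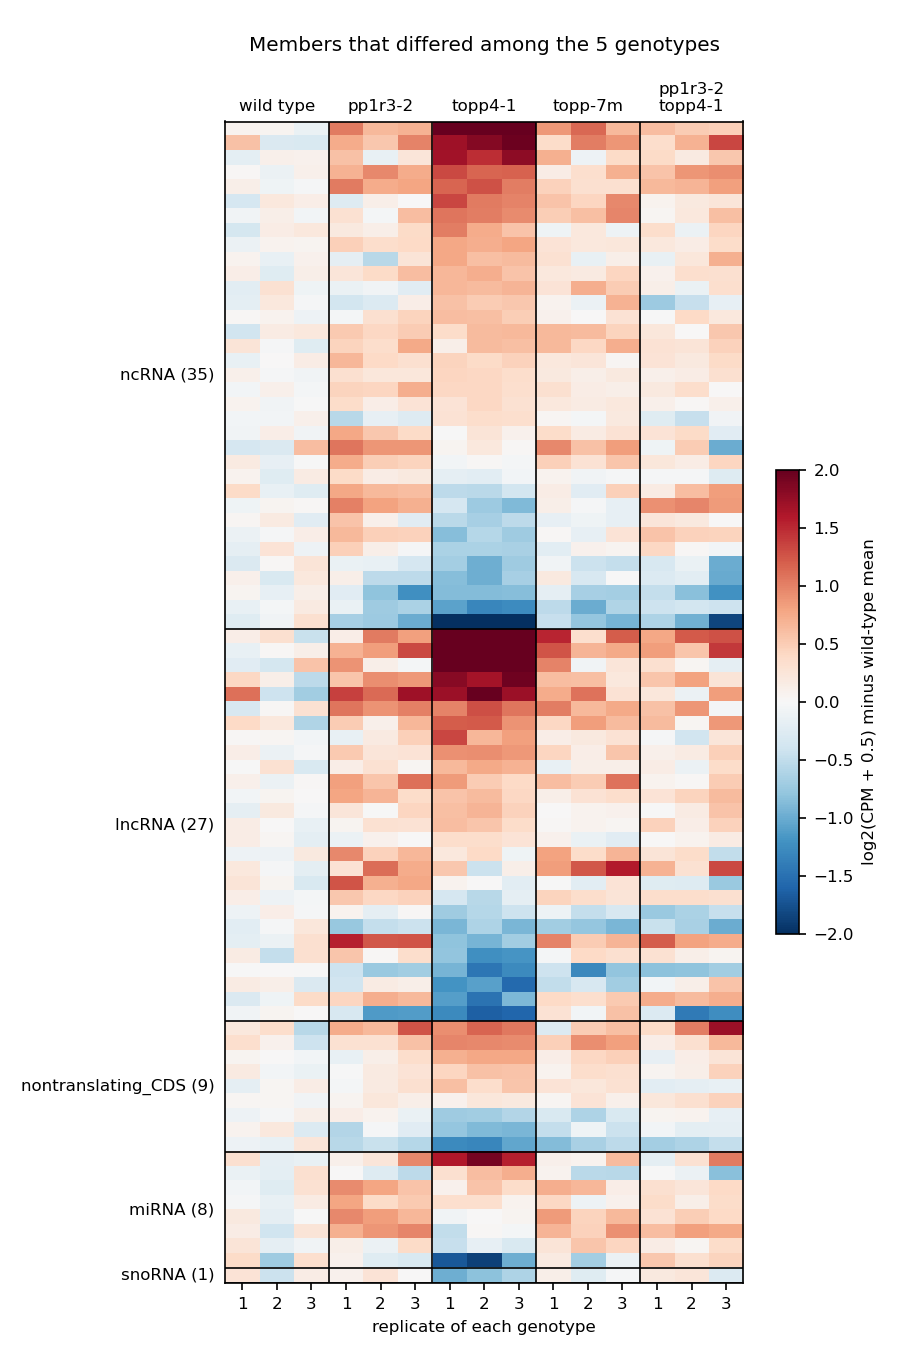
Levels of the 80 members with a called difference among the 5 genotypes, in each of the 15 libraries (columns), as log2(CPM + 0.5) minus the wild-type mean, with colours ending at 2 and -2. Members (rows) are grouped by biotype. The strongest colours, red and blue, are in the 3 topp4-1 columns.

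Together the members took a small share of each library. In wild type they held 0.291, 0.293 and 0.309% of counts. The shares were 0.343, 0.332 and 0.317% in pp1r3-2 and 0.369, 0.361 and 0.36% in topp4-1. In topp-7m they were 0.352, 0.314 and 0.331%, and in the double mutant 0.311, 0.314 and 0.307%. Libraries of pp1r3-2, topp4-1 and topp-7m did not overlap wild type, and those of the double mutant did. The exact two-sided permutation p was 0.1 for pp1r3-2, topp4-1 and topp-7m, the smallest that 3 against 3 libraries can give, and 0.2 for the double mutant. Without AT4G13495, the most abundant member, the difference from wild type went from 0.0332 to 0.0175 percentage points in pp1r3-2 (p = 0.2 by the same permutation test). It went from 0.0346 to 0.0218 in topp-7m (permutation p = 0.2) and from 0.013 to 0.00636 in the double mutant (permutation p = 0.4). In topp4-1 it was 0.0655 against 0.0661.

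In pp1r3-2, the precursors of the chromosome 4 MIR cluster, TAS3 and several lncRNAs were higher than in wild type, and few members were lower. Of the 192 members, 29 were called higher and 5 lower (17.7%) at an adjusted p under 0.05, beside 19.3% of all 20037 genes tested. By direction, 15.1% of members were higher and 2.6% lower, beside 10.9% and 8.33% of all genes. The ncRNA genes had 14 higher and 3 lower, the lncRNA genes 11 and 1, and the miRNA genes 4 and 0, while the snoRNA genes had no call, with 3 of 15 at an unadjusted p under 0.05. The median log2 fold change was 0.16 over members and 0.00 over all genes. The 6 leaf markers summed to 41497 to 49131 CPM in pp1r3-2 against 31810 to 40922 in wild type, without overlap, and 3 of 6 were called higher. The 6 flower and meristem markers summed to 5.83 to 12.7 CPM against 3.16 to 5.79, with 1 of 2 tested called higher, and the part of both lists in the members' changes was not tested. Without wild-type replicate 3 the counts were 21 higher and 1 lower. They came to 20 in all when wild-type replicate 2 was left out, and to 20 when pp1r3-2 replicate 3 was.

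The highest fold change held without any 1 library was that of AT3G03265, a lncRNA gene at chr3:5505992-5506436. It stood at 3.7, 3.92 and 5.47 CPM in wild type and at 13.6, 10.9 and 11 in pp1r3-2. The groups did not overlap, and the log2 fold change was 1.44 ± 0.20 (adjusted p = 0.000165). The gene lies wholly inside TIP2-1, an aquaporin gene of the vacuolar membrane, on the opposite strand, and TIP2-1 was also higher (log2 0.69 ± 0.16, adjusted p = 0.0076). AT3G03265 shares 46 of its 445 exon bases (10.3%) with exons of TIP2-1, and over these bases reads cannot be assigned without strand. Its other bases also lie inside TIP2-1, whose mean was 213.4 CPM against 6.862 for AT3G03265. Whether reads of TIP2-1 RNA were counted there was not tested.

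AT2G26355 rose by 1.00 ± 0.20 on the log2 scale (adjusted p = 0.00342) and AT3G05945 by 0.94 ± 0.19 (adjusted p = 0.0031). AT3G06955 was higher by 1.28 ± 0.31, a call lost without pp1r3-2 replicate 3 (adjusted p = 0.0554), as was that of AT3G52535 (0.95, and adjusted p = 0.0614 without it). AT5G03615 was at 3.43, 0.877 and 0.638 CPM in wild type, so that its log2 value of 1.42 became 2.51 without wild-type replicate 1. Its call, at an adjusted p of 0.04995, was lost without any 1 of the other 5 libraries of this comparison, with adjusted p from 0.0616 to 0.177. Among lower members, CCT2, a nontranslating_CDS member whose product acts in phosphatidylcholine synthesis, fell by 0.55 on the log2 scale (adjusted p = 0.00585). The calls of AT4G26255 (log2 -0.87, adjusted p = 0.04969) and AT1G79075 (-0.74, adjusted p = 0.0412) were each lost without any 1 of 5 of the 6 libraries, with adjusted p up to 0.194 and 0.176.

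In topp4-1, large rises of a few lncRNA genes and of AT3G61198 stood beside falls of AT4G26255, MIR157c and TAS3. Of the members, 51 were called higher and 28 lower (41.1%), beside 53.5% of all genes tested. By direction, 26.6% were higher and 14.6% lower, beside 27% and 26.5% of all genes. The ncRNA genes had 23 higher and 12 lower, the lncRNA genes 20 and 8, the nontranslating_CDS genes 6 and 4, the snoRNA genes 1 and 3, and the miRNA genes 1 and 1. The median log2 fold change was 0.11, against 0.01 over all genes. Without wild-type replicate 3 the counts were 42 and 25.

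Among members, the share called in topp4-1 was larger at higher levels. At 2 to 5 CPM 36.5% of members were called, against 47.4% of protein-coding genes in that range. At 5 to 20 CPM the shares were 40.3% and 51.4%, and at 20 CPM or more 56.7% and 60.8%. In pp1r3-2 the shares over the 3 ranges were 11.8% and 11.8%, 16.9% and 16.3%, and 36.7% and 26.1%. For topp-7m they were 5.88% and 5.74%, 14.3% and 10.4%, and 23.3% and 15.9%. For the double mutant they were 8.24% and 7.72%, 7.79% and 11.2%, and 20% and 18.1%. The highest range held 30 members. These ranges were chosen after the data were seen. The leaf markers summed to 19910 to 22706 CPM in topp4-1, below wild type without overlap, with 5 of 6 called lower. The flower and meristem markers summed to 7.95 to 16.6 CPM, with 1 of 2 tested called higher. The 2 seed markers were at 0 in topp4-1 and also in pp1r3-2. They reached at most 0.104 CPM in topp-7m and 0.103 in the double mutant, against 0.464 to 1.28 in wild type. The 4 root markers summed to 231 to 261 CPM in topp4-1, within the 104 to 291 of wild type. The part of these markers in the members' changes was not tested, and in whole leaves fewer cells of a type and less RNA per cell cannot be told apart.

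**Figure D2:**
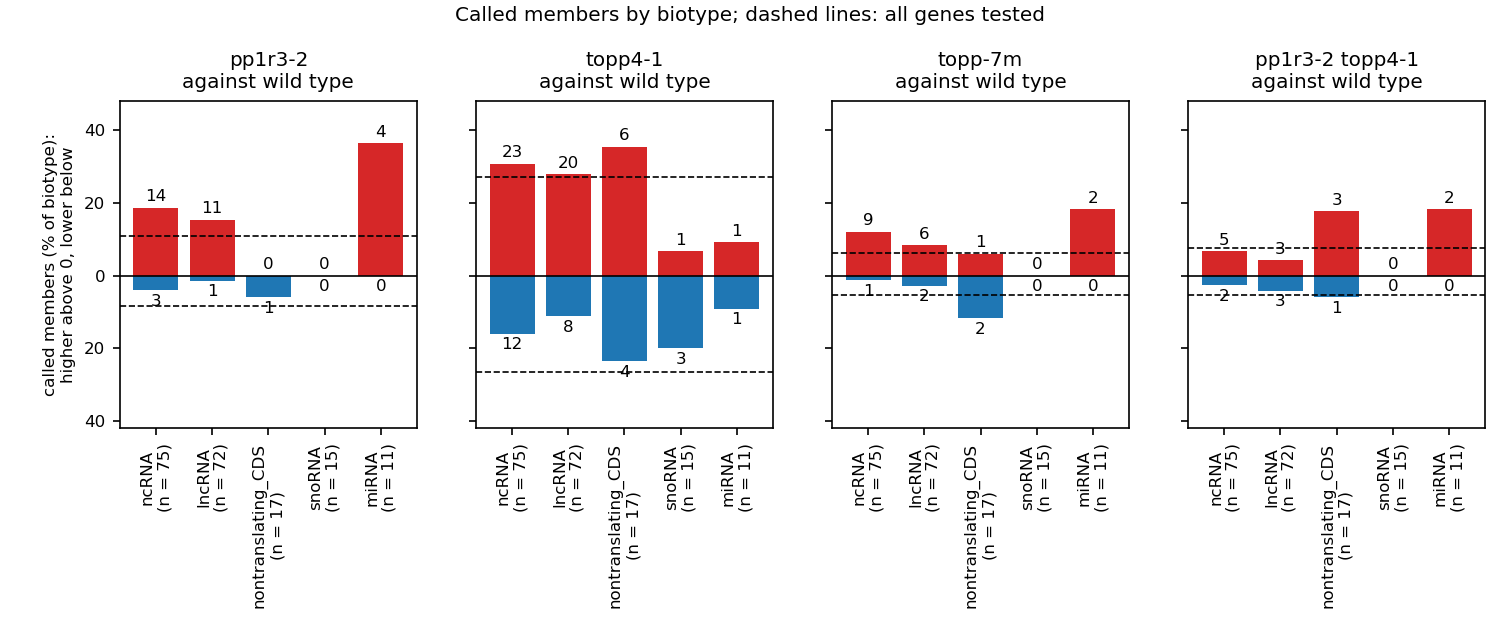
Percent of the members of each biotype called higher (above 0) or lower (below 0) in each mutant against wild type, with the number called at each bar and dashed lines for all genes tested. In topp4-1, 23 ncRNA and 20 lncRNA genes were higher and 12 and 8 lower. All 4 panels share the wild-type libraries.

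AT2G06065, a lncRNA gene at chr2:5735771-5736150, was at 0.804, 0.98 and 0.372 CPM in wild type and at 6.92, 9.34 and 7.22 in topp4-1. The topp4-1 libraries lay well above wild type, with a log2 fold change of 3.43 ± 0.41 (adjusted p = 5.68e-06). Its mean over the 15 libraries, 2.872 CPM, was near the threshold and includes these topp4-1 values. The rule therefore favours a rise of this kind among members with low levels elsewhere. It shares 35 exon bases with AT2G13760 on the same strand.

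AT3G06955 is a lncRNA gene of 1 exon at chr3:16498192-16498394 on the minus strand. Its 203 bases are shown because it had the lowest value in the interaction test described further on.
AT3G06955: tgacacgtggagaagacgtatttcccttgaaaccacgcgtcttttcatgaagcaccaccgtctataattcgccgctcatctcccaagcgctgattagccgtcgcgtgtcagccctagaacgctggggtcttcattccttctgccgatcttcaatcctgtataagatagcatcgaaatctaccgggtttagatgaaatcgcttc
It stood at 0.857, 1.03 and 1.12 CPM in wild type and at 10.7, 9.18 and 9.05 in topp4-1, without overlap (log2 3.26 ± 0.30, adjusted p = 4.17e-07). AT3G06955 overlaps no other gene of the table.

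AT3G61198, an ncRNA gene at chr3:22655884-22656599, was at 19.9, 19.7 and 17.1 CPM in wild type and at 108, 80.8 and 82.3 in topp4-1. All 3 topp4-1 libraries exceeded every other library of the series, and the log2 fold change was 2.26 ± 0.15 (adjusted p = 1.54e-08). The lncRNA genes AT1G08847 (log2 2.25 ± 0.32, adjusted p = 5.13e-05) and AT5G06585 (2.09 ± 0.29, adjusted p = 2.52e-05) completed the 5 highest.

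On the lower side, the ncRNA gene AT4G26255 went from 6.65, 7.53 and 10 CPM in wild type to 1.53, 0.774 and 1.46 in topp4-1. The groups were far apart, and the gene fell by 2.68 on the log2 scale (SE 0.33, adjusted p = 7.73e-06). Of the lncRNA genes, AT3G09415 fell by 1.81, AT5G02515 by 1.71 and AT1G26208 by 1.69. AT5G02515 lies wholly inside AT5G16030 on the opposite strand, with 66 of 1063 exon bases shared, and that gene fell by 0.76. AT5G16030 had a mean of 48.51 CPM against 2.324 for AT5G02515, and the part of its reads in this fall was not tested. AT1G26208 overlaps ATSOFL1, listed at 0 in every library.

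**Figure D3:**
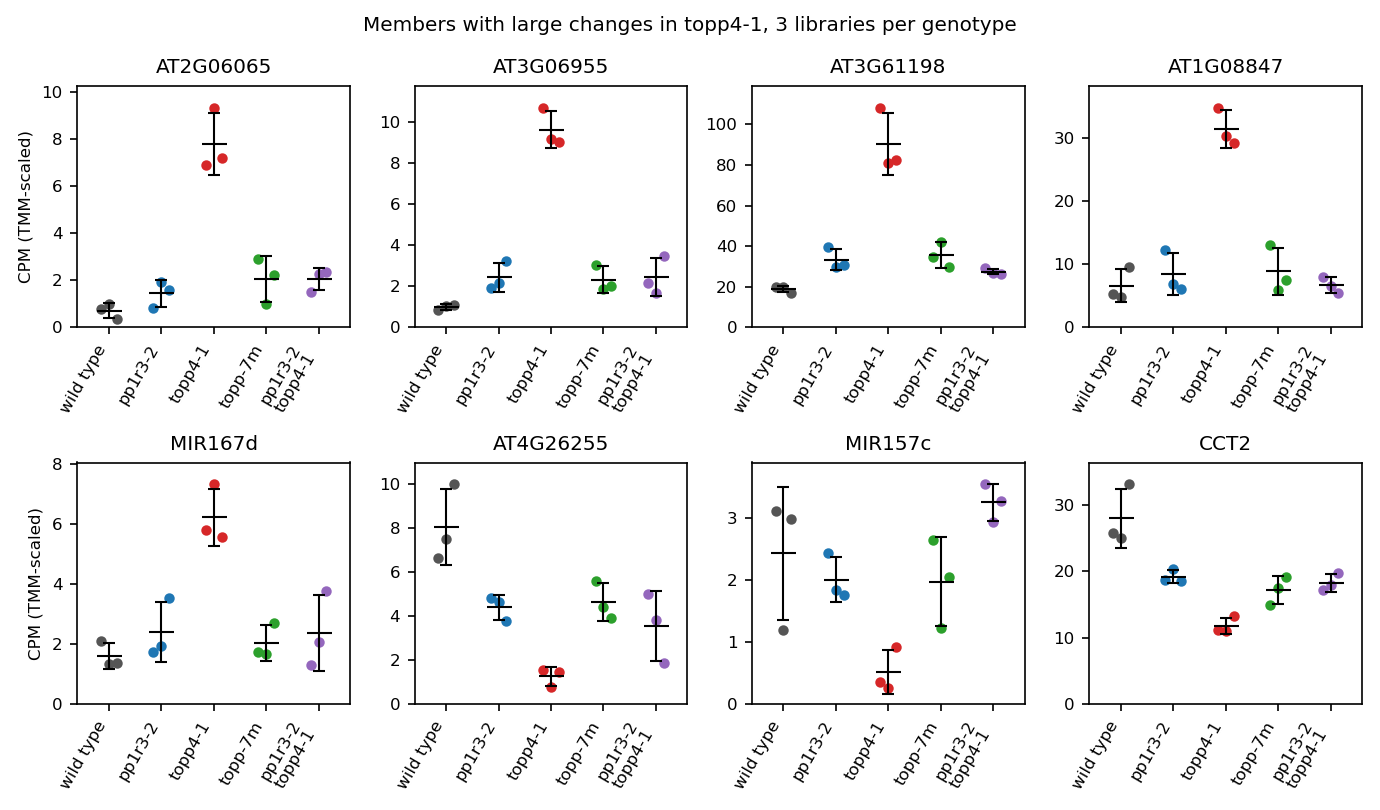
Levels (TMM-scaled CPM, linear axes from 0) of 8 members with large changes in topp4-1, with a point per library and the mean ± SD of 3. In topp4-1 AT2G06065, AT3G06955, AT3G61198, AT1G08847 and MIR167d are highest, and AT4G26255, MIR157c and CCT2 are lowest.

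In topp-7m, 18 members were called higher and 5 lower (12%), beside 11.6% of all genes tested. By direction the members had 9.38% and 2.6%, beside 6.18% and 5.46% of all genes. The ncRNA genes had 9 higher and 1 lower, the lncRNA genes 6 and 2, and the nontranslating_CDS genes 1 and 2. The median log2 fold change was 0.06 over members and 0.00 over all genes. Leaf markers, at 32587 to 40575 CPM, overlapped wild type, with 1 of 6 called higher. Flower and meristem markers summed to 8 to 11.1 CPM, above wild type without overlap, with none of 2 tested called, and their part in the members' changes was not tested. Without wild-type replicate 3 the counts were 9 and 3, and the total was 11 without wild-type replicate 2, 15 without topp-7m replicate 1 and 10 without topp-7m replicate 3.

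AT3G61198 was at 34.8, 42.3 and 30 CPM in topp-7m, above all wild-type libraries (log2 0.92 ± 0.14, adjusted p = 0.000787). CCT2 fell by 0.70, AT1G07323 by 0.83 and AT1G58590 by 0.71 on the log2 scale, with adjusted p of 0.00178, 0.00307 and 0.00647. AT2G06065 (log2 1.51), AT2G06185 (1.32), AT3G06955 (1.22), AT1G66173 (0.88), AT4G28162 (-0.91) and BGLU5 (-0.41) were called too, but each call was lost without wild-type replicate 3 or wild-type replicate 2, and also without at least 1 topp-7m library. Their largest adjusted p on leaving out 1 library was 0.134, 0.066, 0.076, 0.129, 0.127 and 0.0907 in that order.

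In the double mutant pp1r3-2 topp4-1, 13 members were called higher and 6 lower (9.9%), beside 13.1% of all genes tested. By direction these were 6.77% and 3.12%, beside 7.66% and 5.47% of all genes. The ncRNA genes had 5 higher and 2 lower, the lncRNA genes 3 and 3, and the nontranslating_CDS genes 3 and 1. The median log2 fold change was 0.08 over members and -0.00 over all genes. Leaf markers summed to 40126 to 46610 CPM, overlapping wild type, with 4 of 6 called higher. Flower and meristem markers summed to 3.11 to 14.4 CPM, with 1 of 2 tested called higher, and the lists' part in the members' changes was not tested. Without wild-type replicate 3 the counts were 8 and 3, and without double mutant replicate 3 they were 8 and 2. The total was 12 without wild-type replicate 2.

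AT3G03265 was at 10.6, 7.89 and 7.51 CPM, above all wild-type libraries (log2 0.99 ± 0.20, adjusted p = 0.00413). AT1G07323 fell by 0.71 (adjusted p = 0.00727) and CCT2 by 0.62 (adjusted p = 0.00412). AT2G06065 (log2 1.5), AT3G06955 (1.29), ABCG27 (1.3), AT4G26255 (-1.18), AT1G79075 (-0.86), AT4G28162 (-0.90) and AT1G60525 (-0.74) were called, and each call was lost without double mutant replicate 3 or replicate 2. Their largest adjusted p on leaving out 1 library was 0.138, 0.0777, 0.22, 0.0893, 0.118, 0.0834 and 0.124 in that order.

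The double mutant was also set against each single mutant. Against topp4-1, 25 members were called higher and 32 lower (29.7%), beside 43.3% of all genes. All 6 leaf markers were called higher there, with a median log2 fold change of 1.17, and their part in the members' changes was not tested. AT5G02515 was higher by 2.51 ± 0.29 (adjusted p = 6.42e-06), MIR157c by 2.63 ± 0.45 (0.000229, and 3.39 without topp4-1 replicate 3) and AT3G03265 by 1.95 ± 0.21 (3.02e-06). AT1G08847 fell by 2.23, AT3G06955 by 1.97 and AT2G06065 by 1.92.

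Against pp1r3-2, 1 member was called, AT3G05945, beside 0.0349% of all genes, and 22 members had an unadjusted p under 0.05. DESeq2 also called 1. AT3G05945 was at 25.7, 17.5 and 18.3 CPM in pp1r3-2 and at 8.78, 8.71 and 6.1 in the double mutant, without overlap (log2 -1.38 ± 0.20, adjusted p = 0.0137). The call was lost without pp1r3-2 replicate 1 (adjusted p = 0.103) or double mutant replicate 2 (0.054).

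The interaction tests whether the effect of topp4-1 differs between the pp1r3-2 and wild-type backgrounds. It was called for 64 members, 18 positive and 46 negative (33.3%), beside 38.3% of all genes. By direction these were 9.38% and 24%, beside 19% and 19.3% of all genes. Negative values were called for 20 ncRNA and 18 lncRNA genes, and positive ones for 5 and 7. The lowest were AT3G06955 (log2 -3.25 ± 0.41, adjusted p = 2.3e-05), AT5G03615 (-3.09 ± 0.67, and -4.17 without wild-type replicate 1) and AT2G06065 (-2.92 ± 0.57). The highest were MIR157c (2.90 ± 0.61), AT4G26255 (2.37 ± 0.45) and AT1G26208 (1.98 ± 0.41). Without wild-type replicate 3 the interaction counts were 13 and 38. Any difference among the 5 genotypes was called for 80 members (41.7%), beside 52.6% of all genes.

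Among the TAS genes, TAS3 was the one called against wild type, higher in pp1r3-2 and the double mutant and lower in topp4-1. TAS3 was at 9.16, 10.2 and 9.99 CPM in wild type, 20.2, 17.4 and 16.3 in pp1r3-2 and 18.8, 19.8 and 18.1 in the double mutant. It was at 7.63, 5.73 and 5.08 CPM in topp4-1 and 10.7, 9.61 and 8.69 in topp-7m. The pp1r3-2 and double mutant libraries lay above wild type, the topp4-1 libraries below, and topp-7m overlapped it. The log2 fold changes were 0.88 ± 0.14 (adjusted p = 0.00052), 0.95 ± 0.14 (0.000442), -0.67 ± 0.15 (0.00118) and -0.02 ± 0.14 (0.953). Against topp4-1 the double mutant was higher by 1.62 ± 0.14 (adjusted p = 5.02e-07), and the interaction was 0.74 ± 0.20 (0.00816).

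TAS1A, TAS1B, TAS1C and TAS2, whose small RNAs mainly target PPR genes, had no call against wild type, with log2 values from -0.31 to 0.29. Against topp4-1, the double mutant had TAS1B higher by 0.57 (adjusted p = 0.00806, and 0.0508 without double mutant replicate 2). TAS1A was higher by 0.37 (adjusted p = 0.0484), a call lost without any 1 of 5 of the 6 libraries, with adjusted p from 0.0764 to 0.164.

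**Figure D4:**
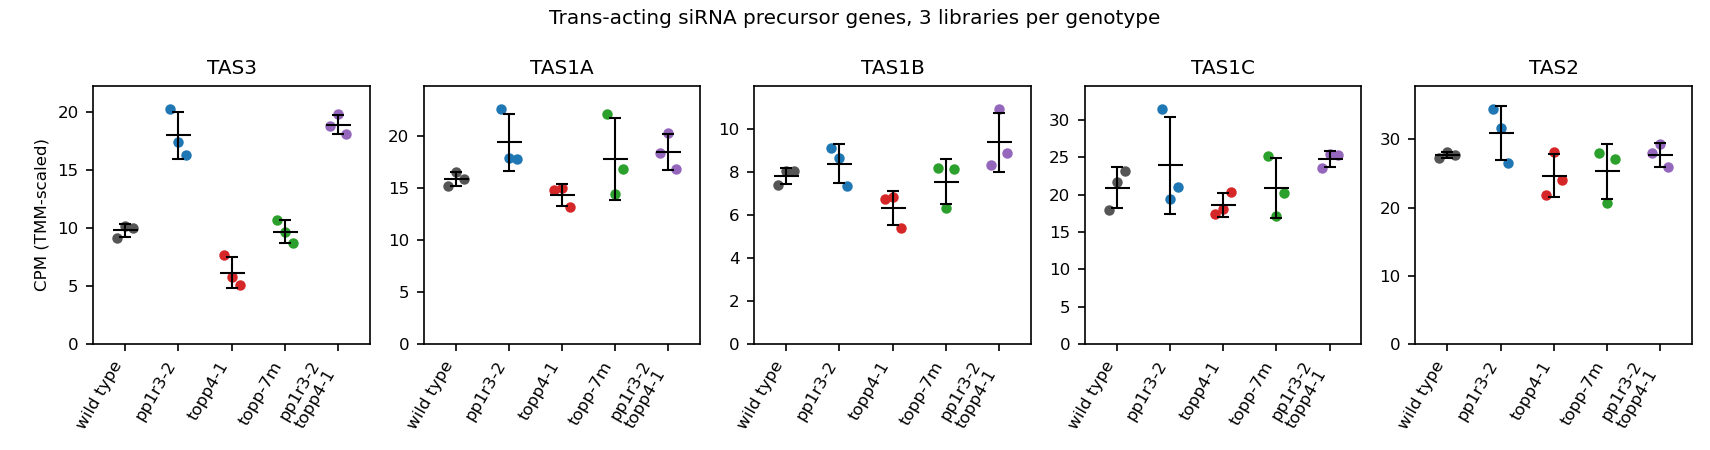
Levels (TMM-scaled CPM) of the 5 TAS members by genotype, with a point per library and the mean ± SD of 3. TAS3 is above wild type in pp1r3-2 and the double mutant and below it in topp4-1. The group means of the other TAS genes lie closer together.

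Genes of the TAS3 pathway were measured alongside. AGO7, the argonaute that binds miR390, fell by 0.92 on the log2 scale in topp4-1 (adjusted p = 0.0122). In the same comparison DCL4 rose by 0.65 and SGS3 by 0.75, and RDR6 fell by 0.25. ARF3, a target of TAS3 small RNAs, stood at 27.2, 25.4 and 24.4 CPM in wild type and at 47, 43.2 and 39.7 in topp4-1, a rise of 0.76 ± 0.09 (adjusted p = 7.25e-06). ARF4 (0.11) and ARF2 (0.25) had no call. Of 24 small RNA machinery genes, 11 were higher and 4 lower in topp4-1 (62.5%), and of 14 tested targets of TAS small RNAs, 2 were higher and 2 lower (28.6%), beside 53.5% of all genes. In pp1r3-2, where TAS3 was higher, 0 of these 14 targets were higher and 1 lower (7.14%), beside 19.3% of all genes. In the double mutant, where TAS3 was also higher, 0 were higher and 0 lower, beside 13.1%. A link between TAS3 and its targets was not tested.

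The 3 MIR genes on the plus strand of chromosome 4 lie in or across AT4G13495 (chr4:7842967-7846774), which has 5 distinct exons in 2 transcripts. MIR5026 and MIR850 lie in it without sharing an exon base, and MIR863 shares 178 exon bases with it. AT4G13495 was at 415, 327 and 365 CPM in wild type, 617, 518 and 501 in pp1r3-2 and 511, 449 and 540 in topp-7m. Both mutants lay above wild type, with log2 fold changes of 0.56 ± 0.12 (adjusted p = 0.00373) and 0.44 ± 0.12 (0.025). The second call was lost without wild-type replicate 2 or 3 or topp-7m replicate 1 or 3, with adjusted p from 0.0581 to 0.115.

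MIR850 was at 17.8, 13.6 and 15.4 CPM in wild type, 30.5, 28.1 and 25 in pp1r3-2 and 28.3, 21.4 and 24.7 in topp-7m. It rose by 0.84 ± 0.12 (adjusted p = 0.00027) and 0.67 ± 0.12 (0.00212), without overlap of the groups. MIR5026 rose by 0.87 ± 0.18 in pp1r3-2 (adjusted p = 0.00347). Its rises in topp-7m (0.71) and the double mutant (0.74) were lost without wild-type replicate 2, with adjusted p of 0.0886 and 0.0667, and the first also without topp-7m replicate 3 (0.0944). MIR863 rose by 0.84 in pp1r3-2, and leaving out wild-type replicate 2 (adjusted p = 0.0717) or pp1r3-2 replicate 1 (0.0617) ended that call. None of the 4 genes was called in topp4-1, with log2 values from -0.19 to 0.38. Their reads may be shared, so these genes are not independent.

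**Figure D5:**
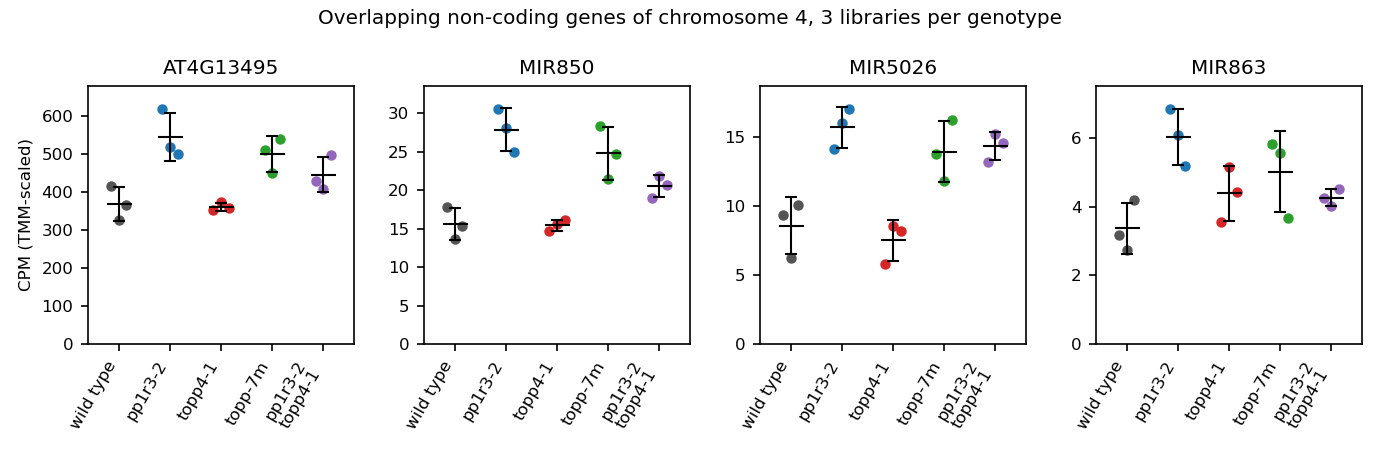
Levels (TMM-scaled CPM) of AT4G13495, MIR850, MIR5026 and MIR863 by genotype, with a point per library and the mean ± SD of 3. The pp1r3-2 libraries lie above wild type for all 4 genes, and the topp4-1 libraries overlap it.

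MIR157c, whose hairpin is printed above, was at 3.11, 1.19 and 2.98 CPM in wild type and at 0.356, 0.258 and 0.914 in topp4-1. The topp4-1 libraries were lower without overlap, with a log2 fold change of -2.21 ± 0.46 (adjusted p = 0.000808), and of -2.97 without topp4-1 replicate 3. In the double mutant it was at 3.54, 2.94 and 3.27 CPM. SPL9 and SPL10, which carry a complementary stretch, had log2 values of -0.57 (adjusted p = 0.101) and -0.10 (0.408) in topp4-1. SPL13A had 0.73 (0.298), SPL3, whose stretch had 5 mismatches, was too low to test, and SPL15 is listed at 0.

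MIR167d moved in the other direction. It was at 2.09, 1.34 and 1.38 CPM in wild type and at 5.8, 7.33 and 5.58 in topp4-1, without overlap (log2 1.95 ± 0.37, adjusted p = 0.00035). The interaction was -1.97 ± 0.52 (adjusted p = 0.00705). Its targets ARF6 and ARF8 fell by 0.78 and 0.64 in topp4-1 (adjusted p = 9.46e-05 and 0.000221). Of 38 tested targets of microRNAs, 9 were higher and 13 lower there (57.9%), near the 53.5% of all genes called. MIR414 rose by 0.58 in pp1r3-2, and its adjusted p was 0.0531 with wild-type replicate 2 left out and 0.061 with pp1r3-2 replicate 1 left out.

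Of the 15 snoRNA members, 9 held a C box (TGATGA) in the first 20 bases and a D box (CTGA) in the last 20, as did 120 of all 287 snoRNA genes (41.8%). Windows of the same length upstream held both in none of the 287. AT3G47348 and AT3G50825 are shown with the boxes in capitals, the first for its level and the second for its change.
AT3G47348: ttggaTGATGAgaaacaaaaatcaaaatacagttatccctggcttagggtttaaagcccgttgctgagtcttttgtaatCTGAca
AT3G50825: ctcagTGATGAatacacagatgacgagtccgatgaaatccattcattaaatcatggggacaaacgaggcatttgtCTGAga
AT3G50825 was at 5.52, 3.2 and 5.05 CPM in wild type and at 2.03, 2.32 and 2.74 in topp4-1, without overlap (log2 -0.95 ± 0.24, adjusted p = 0.0032). Also called in topp4-1 were AT1G06283 (-0.82), AT5G02575 (-1.12) and AT1G09533 (0.68), all 4 named after their values were seen. AT1G06283 lies wholly inside the protein-coding gene AT1G29465 on the same strand, without a shared exon base. Their means were 2.395 and 2.393 CPM, and the part of AT1G29465 reads in this call was not tested.

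The nontranslating_CDS members, which RefSeq annotates as protein-coding, include regulators. MKP1, a MAP kinase phosphatase, was at 79.3, 76.7 and 73.6 CPM in wild type and at 125, 131 and 131 in topp4-1, without overlap (log2 0.75 ± 0.13, adjusted p = 0.000145). RR2, a cytokinin response regulator, rose by 0.95 and BPG2, a chloroplast protein, fell by 0.91 in topp4-1, both named after their values were seen. BGLU5 fell by 0.67 (adjusted p = 6.67e-05). CCT2 was at 25.8, 25.1 and 33.1 CPM in wild type and at 11.2, 11 and 13.2 in topp4-1, a fall of 1.25 (SE 0.13, adjusted p = 1.1e-06). It shares 158 of its 1234 exon bases (12.8%) with AT4G15140 on the opposite strand. That gene had a mean of 5.189 CPM against 18.84 for CCT2, and the part of its reads in this fall was not tested. Without the 17 nontranslating_CDS genes, 29 members were higher and 4 lower in pp1r3-2 (18.9%, beside 19.3% of all genes tested). The counts were 45 and 24 in topp4-1 (39.4%, beside 53.5%) and 17 and 3 in topp-7m (11.4%, beside 11.6%). In the double mutant they were 10 and 5 (8.57%, beside 13.1%).

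Some members were called in one direction in each of the 4 comparisons with wild type, which share their wild-type libraries. CCT2 had log2 values of -0.55, -1.25, -0.70 and -0.62, in the order pp1r3-2, topp4-1, topp-7m, double mutant. AT1G07323 had -0.58, -0.85, -0.83 and -0.71, of which the first had an adjusted p of 0.0903 when wild-type replicate 3 was left out and 0.064 when pp1r3-2 replicate 1 was. AT3G61198 had 0.82, 2.26, 0.92 and 0.54, of which the last had an adjusted p of 0.054, 0.119 and 0.0587 when wild-type replicate 2, wild-type replicate 3 or double mutant replicate 1 was left out. AT1G69252, named after its values were seen, had 0.87, 1.16, 0.38 and 0.72.

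Overlap with other genes limits what a count means. Of the members, 72 overlap another gene, 62 a protein-coding one, and 58 a protein-coding gene on the opposite strand, 44 of these being lncRNA genes. Among the 58 longest-overlapping partners, 22 (37.9%) are listed at 0 in all 15 libraries, against 14.2% of 27420 protein-coding genes. Where at least 20% of a member's exon bases were shared, the partner was at 0 for 19 of 34 (55.9%). Examples are UGT74D1, opposite AT2G31751, and UGT76E11, opposite AT3G46668, both named after their values were seen. How reads of such pairs were counted is not given in the sources used here, and its part in these levels was not tested.

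For 27 opposite-strand pairs both genes were tested. In topp4-1 11 members (40.7%) and 17 partners (63%) were called, beside 53.5% of all genes. In 7 pairs both were called, of which 5 moved in one direction and 2 in opposite directions. In the double mutant against topp4-1, 11 members (40.7%) and 14 partners (51.9%) were called, beside 43.3% of all genes. There both were called in 7 pairs, each pair in one direction. Whether the genes of a pair were linked was not tested. Of the 120 members without overlap, 36 were higher and 18 lower in topp4-1 (45%), and of the 72 with overlap 15 and 10 (34.7%).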

How the data were processed

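Per the labels' protocols, leaf RNA was poly-A selected and the library kit was NEBNext Ultra. The submitters' processing notes name HISAT2 2.0.5 as the aligner. The authors deposited whole-number read counts per gene without normalization. How reads were counted (tool, use of strand, build, annotation) is not given in the sources used here. Reads over bases that 2 genes share, on either strand, can therefore not be assigned to 1 of them. Coordinates and sequences are from RefSeq TAIR10.1, with which the start and end of all 192 members match. Gene lengths were taken as the deposited table gives them.

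The members were chosen by mean CPM over the 15 libraries, so their levels are a description. A gene high in 1 genotype could pass by it, so the rule favours such rises among members near 2 CPM. The members, lists and tests were chosen with earlier results of these data known. Groups are the genotypes of the labels, with 3 libraries each. Replicate pairs differed by 5.87 to 27.5 in chi-square per gene, so none was counted as a duplicate.

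Genes were kept by edgeR's filterByExpr (minimum count 10, minimum total 15), which left 20037 genes and all 192 members. Counts were scaled by TMM and fitted with 1 mean per genotype over all 15 libraries (edgeR 4.0.16, R 4.3.3, robust quasi-likelihood). P-values were adjusted by Benjamini-Hochberg over all genes tested, and an adjusted p under 0.05 is a call. A standard error is the size of the log2 fold change over the root of its F statistic. Shares of counts were compared by exact permutation. The scripts were tested on simulated data.

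Members were named by fixed rules: the 3 most abundant of each biotype, the 5 highest and 5 lowest called changes against wild type whose groups did not overlap, the 3 highest and 3 lowest in the other comparisons, RNAs with an established role, MIR genes, and the 3 genes on each side of the threshold. Alternatives were RLE factors, other filters, DESeq2 1.42.0, a fit of only the libraries compared, a replicate block, a log2 change of at least 1, and leaving out each library. Precision is limited by 3 libraries per genotype and by low counts near 2 CPM.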

Additional observations from a re-analysis of the deposited data

Results flagged for a closer look

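By edgeR's interaction test, the effect of topp4-1 differed between the wild-type and pp1r3-2 backgrounds for 64 members at an adjusted p under 0.05. These were 33.3% of members, beside 38.3% of all genes tested. The members named by the size of the interaction were MIR157c (AT3G18217), with a log2 value of 2.90, AT4G26255 with 2.37 and AT1G26208 with 1.98. On the negative side were AT3G06955 with -3.25, AT5G03615 with -3.09 and AT2G06065 with -2.92. The value of AT5G03615 was -4.17 without wild-type replicate 1, and that of MIR157c was 3.67 without topp4-1 replicate 3.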

How the results depend on the processing

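Of 138 called changes of 53 named members, recomputed under 1824 alternative values, 1575 kept their direction and call, 249 kept direction and lost the call, and 0 reversed. With a log2 change of at least 1 also required, the members called were 3 in pp1r3-2, 28 in topp4-1, 3 in topp-7m and 4 in the double mutant, 21 in the double mutant against topp4-1 and 30 in the interaction. A fit of only the libraries compared called 13 in topp-7m, 11 in the double mutant and 0 in the double mutant against pp1r3-2, with fewer samples in the fit. Leaving out 1 library at a time gave 20 to 34 calls for pp1r3-2, between 64 and 71 for topp4-1, 10 to 20 each for topp-7m and the double mutant, 48 to 64 against topp4-1, 0 to 1 against pp1r3-2, 48 to 66 for the interaction and 61 to 86 for any difference. Without the most abundant member the difference in summed share went from 0.0332 to 0.0175 percentage points in pp1r3-2, from 0.0346 to 0.0218 in topp-7m and from 0.013 to 0.00636 in the double mutant, with permutation p of 0.2, 0.2 and 0.4. It was 0.0527 in topp4-1 with TMM-scaled library sizes, against 0.0661. The cause of these shifts was not tested. The other alternatives kept each count of calls within 1.5 times. Shares of all genes were not set beside counts of calls under any alternative, left-out libraries included. Those counts therefore describe the members alone.

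Over all genotypes the replicate numbers did not pair the samples. Of 30 same-number pairs, 9 correlated over 0.1, and 22 of 60 best matches had the same number. Some genotypes did share structure. For replicate 3, correlations were 0.32 (pp1r3-2, topp-7m), 0.447 (pp1r3-2, double mutant) and 0.514 (topp-7m, double mutant). The same values were 0.229, 0.256 and 0.388 for replicate 1, and 0.0341, 0.217 and -0.00294 for replicate 2. Wild-type replicate 1 correlated with replicate 3 of these mutants at 0.192, 0.293 and 0.416. A block on the number does not capture this last pattern, and its cause was not tested. With the replicate number as a block, calls were 34 in pp1r3-2, 81 in topp4-1, 24 in topp-7m, 21 in the double mutant, 59 against topp4-1, 1 against pp1r3-2, 63 for the interaction and 79 for any difference. Members near 2 CPM rest on few counts, so a missed call there does not show that levels did not differ.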
